A study of Homo sapiens with 9 samples.

Results

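The expression of 10 adhesion molecules was followed in 786-0 cells, a line from clear cell renal cell carcinoma (ccRCC) that lacks functional VHL and expresses HIF2α constitutively. The genes were VCAM1, ICAM1, ALCAM, MCAM, L1CAM, NCAM1, NRCAM, BCAM, F11R and CD44. They were chosen by name as adhesion molecules of the immunoglobulin type, with earlier results of these data known. All 10 were found by symbol among the 58735 gene identifiers of the RNAseq count table. CD44 is the exception to the label, since it binds hyaluronan through a link domain and has no immunoglobulin domain. Untreated 786-0 WT cells (WT) were compared with the same cells after 48 h in 10 μM PT2385 (PT2385) and with 786-0 cells of the hif2a KO genotype (KO), with 3 replicates in each of the 3 groups. PT2385 is an antagonist that binds the PAS-B domain of HIF2α and prevents its pairing with HIF1β. All cells were kept under normoxia (21% O2) for 48 h in medium with 5 mM glucose and 10% serum. All carry the VHL defect of the line, in which the authors also report an inactivating mutation of the HIF1α gene. How the knockout was made, whether it is a single clone and whether the untreated cells received a vehicle are not given in the sources used here, so the loss of HIF2α and the history of the KO line cannot be told apart.

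Adhesion molecules of this type reach out of the cell with a row of immunoglobulin domains and bind either a copy of themselves, another family member or an integrin on the facing cell. VCAM1 and ICAM1 are best known from inflamed endothelium, where NF-kappaB induces them and leukocytes dock on them through the integrins α4β1 and LFA-1. Tubular and carcinoma cells of the kidney can also make both. ALCAM, MCAM, L1CAM, NCAM1 and NRCAM act in contacts between cells, BCAM binds laminin, F11R (JAM-A) sits at tight junctions, and CD44 links the cell to hyaluronan.

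The stretch just before the transcription start is shown for VCAM1 and ICAM1 because NF-kappaB is known to induce both, while VCAM1 passed the test in KO and ICAM1 did not. The sequences are the 250 bases before the RefSeq start on GRCh38.p14, both on the plus strand, at chr1:100719492-100719741 for VCAM1 and chr19:10270870-10271119 for ICAM1. Capitals mark the NF-kappaB consensus in VCAM1 and, in ICAM1, the HIF core letters GCGTG read on the minus strand.
VCAM1: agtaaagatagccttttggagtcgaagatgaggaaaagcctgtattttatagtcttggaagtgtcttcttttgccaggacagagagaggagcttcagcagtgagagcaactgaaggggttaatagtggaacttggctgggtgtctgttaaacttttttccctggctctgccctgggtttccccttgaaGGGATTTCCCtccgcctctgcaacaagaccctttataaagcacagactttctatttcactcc
ICAM1: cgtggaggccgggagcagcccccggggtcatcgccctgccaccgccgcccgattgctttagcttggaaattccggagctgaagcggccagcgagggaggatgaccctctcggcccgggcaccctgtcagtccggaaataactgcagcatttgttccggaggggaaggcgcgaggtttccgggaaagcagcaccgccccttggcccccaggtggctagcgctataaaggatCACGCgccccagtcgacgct
The VCAM1 stretch held the NF-kappaB consensus once, 62 to 53 bases before the start (chromosome 1, 100719680 to 100719689), at a site that matches the degenerate consensus on both strands. Neither ACGTG nor GCGTG, the core letters of HIF binding sites, was found there on either strand. ICAM1 held GCGTG 20 to 16 bases before the start and no match to the consensus searched. That consensus was GGGRNNYYCC, where R is A or G, Y is C or T and N is any base. Near matches were not counted, such as tggaaattcc in the ICAM1 stretch and gggtttcccc in the VCAM1 stretch. The search therefore does not show that the 2 genes differ in NF-kappaB sites. Of the 10 genes 8 were in the RefSeq table, with 12 start windows between them, and VCAM1 was the single gene whose window held the NF-kappaB consensus. Among all 35116 windows of this length 9.96% held it. ACGTG or GCGTG was found in the windows of ICAM1, ALCAM and CD44 and in 43.2% of all windows, whereas the 3 windows of NRCAM, the 2 of L1CAM and the single one of MCAM held none of these letters. NCAM1 and F11R were not in the table. A match of letters is a description of the sequence and does not show that a factor binds there.

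Library size was 11881000 to 14730081 counts. EPAS1, which encodes HIF2α, had 3226, 3210 and 2788 counts in WT, 3075, 3317 and 3132 with PT2385 and 262, 360 and 307 in KO, low in the libraries labelled KO, while PT2385 overlapped WT (log2 fold change -0.11, adjusted p = 0.459). Most renal epithelial and carcinoma markers were abundant (PAX8 had at least 6975 counts in every library). PAX2 was lower, with 146 to 461 counts, and CA9 was at 0 in all 9 libraries. Of the 6 tested, 2 rose with PT2385 (KRT8, 0.26, and KRT18, 0.47, on the log2 scale) and 1 fell (PAX2, -0.44). In KO 2 rose and 1 fell. These changes had an adjusted p under 0.05, which 7.70% of all genes reached with PT2385 and 30.1% in KO. Of the endothelial markers PECAM1, VWF, CLDN5 and EMCN were at 0, and of the leukocyte markers PTPRC reached 1 count and CD3E was at 0. COL1A2, COL3A1, DCN and PDGFRA of the fibroblast list were also at 0, while COL1A1 had 24 to 104 counts and PDGFRB had 23 to 37 outside KO and at most 2 in KO. RGS5, a pericyte marker, had 30 to 61 counts in every library, and the myeloid markers CSF1R and CD14 had 7 to 19 and 0 to 18, with the highest CD14 count in KO. In all, 6 of 7 endothelial, 3 of 7 leukocyte and 4 of 7 fibroblast and pericyte markers had at most 3 counts in every library. LCP1, on the leukocyte list but also made by carcinoma cells, had 452 to 472 counts in WT and 39 to 102 in KO.

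In untreated cells the 10 genes spanned a wide range. Levels between genes were compared as CPM, the counts scaled to a common library size after TMM normalisation, divided by the length of the merged exons in kb. CD44 and ALCAM led with 64.9 ± 6.22 and 62.0 ± 6.10 CPM per kb (mean ± SD, n = 3 here and below), and their replicates overlapped. ICAM1 followed at 50.4 ± 1.94. MCAM (8.49 ± 1.14), NCAM1 (7.23 ± 0.491) and F11R (7.07 ± 0.486) formed a middle group whose order was within the spread of the replicates. VCAM1 stood at rank 7 with 2.98 ± 0.101, ahead of L1CAM (1.15 ± 0.437) and NRCAM (0.364 ± 0.161), and BCAM was the lowest with 1 to 5 counts. Counts do not separate the splice forms of CD44 or of the neural adhesion molecules.

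VCAM1 rose both upon PT2385 treatment and in KO. It had 18.7, 17.9 and 17.5 CPM in WT, 79.0, 63.1 and 88.9 with PT2385 and 110, 101 and 157 in KO. The 3 groups did not overlap, and the WT replicates lay close together while KO replicate 3 stood above the other KO libraries. The mean went from 18.0 ± 0.613 CPM in WT to 77.0 ± 13.0 with PT2385 and 123 ± 30.3 in KO. The log2 fold change was 2.09 (95% confidence interval 1.83 to 2.35, standard error 0.119, adjusted p = 3.01e-07) for PT2385 against WT and 2.78 (2.44 to 3.12, standard error 0.155, adjusted p = 2.50e-07) for KO against WT. Compared directly, KO was higher than PT2385 by 0.67 on the log2 scale (0.31 to 1.04, adjusted p = 0.0154). That difference was 0.45 (adjusted p = 0.0239) without KO replicate 3, and without PT2385 replicate 2 it was 0.55 with an adjusted p of 0.0718. These values and all adjusted p below are from edgeR's quasi-likelihood test with Benjamini-Hochberg adjustment over all tested genes. No other gene overlaps the exons of VCAM1 (ENSG00000162692, GRCh38, chromosome 1, 100719742 to 100739045, plus strand).

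NRCAM, a member of the L1 family that binds ankyrin inside the cell and is best known from neurons, changed in the same directions and started from very few reads. It had 18, 49 and 38 counts in WT, 128, 137 and 125 with PT2385 and 571, 566 and 754 in KO. The groups were again fully separated, with the lowest PT2385 library clearly above the highest WT library and all KO libraries far above both. In CPM the level was 2.91 ± 1.28 in WT, 9.76 ± 0.895 with PT2385 and 45.0 ± 6.34 in KO. The log2 fold change was 1.74 (1.20 to 2.27, standard error 0.246, adjusted p = 7.81e-04) for PT2385 and 3.96 (3.48 to 4.44, standard error 0.218, adjusted p = 2.17e-07) for KO against WT. KO exceeded PT2385 by 2.21 (1.92 to 2.49, adjusted p = 1.71e-06), and this was the largest direct difference of the 9 genes tested. NRCAM lies on chromosome 7 from 108147623 to 108456717 on the minus strand and shares no exon with another gene.

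**Figure D1:**
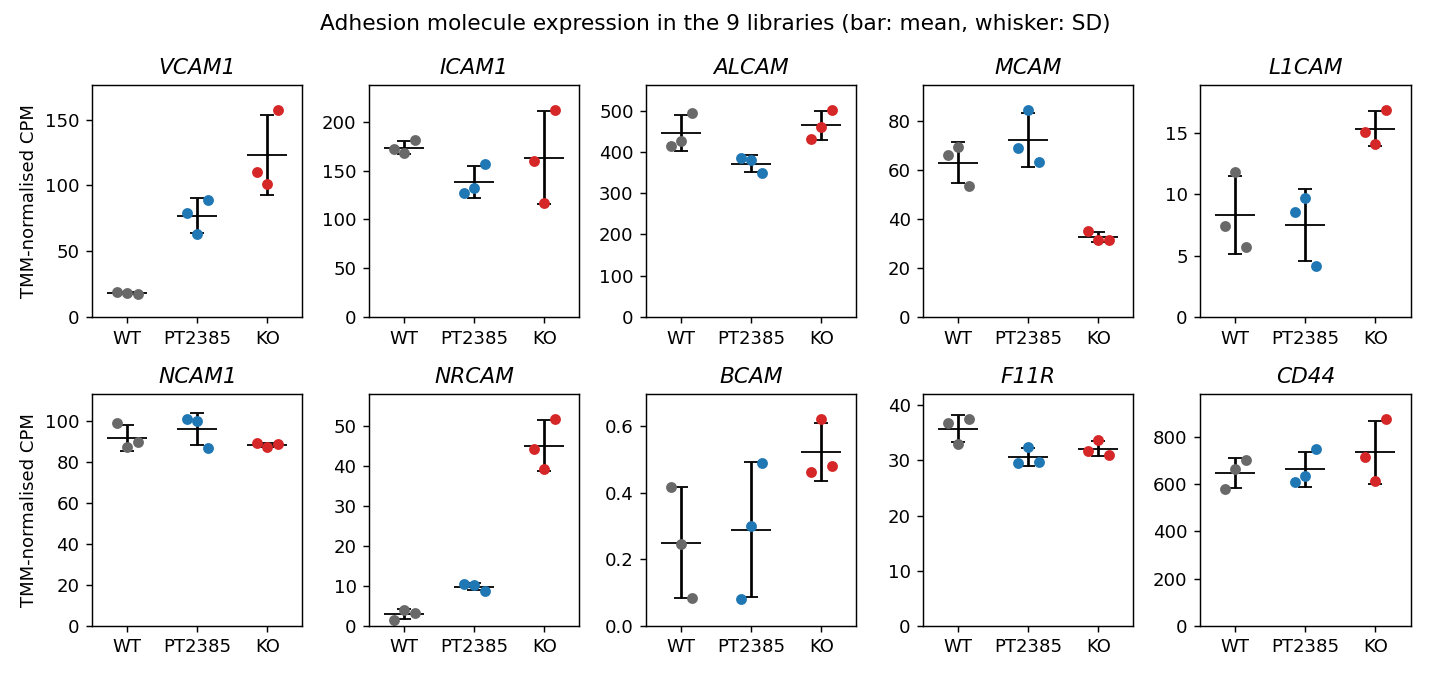
TMM-normalised CPM of the 10 genes in each library (vertical axes linear and starting at 0, 1 panel per gene). Points are single libraries of WT, PT2385 and KO, horizontal bars are means and whiskers are SDs. VCAM1 and NRCAM rise from WT over PT2385 to KO without overlap, MCAM is low in the 3 KO libraries, and ICAM1 and CD44 are widely spread in KO.

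ICAM1, the ligand of the β2 integrins, did not follow VCAM1. It had 172, 168 and 181 CPM in WT, 127, 132 and 157 with PT2385 and 160, 117 and 213 in KO. The PT2385 libraries all lay below the WT libraries, whereas the KO libraries spanned the values of both groups. Upon PT2385 treatment ICAM1 fell by 0.33 on the log2 scale (adjusted p = 0.0276), but the adjusted p was 0.0859, 0.0952 and 0.116 without WT replicate 1, 2 and 3, 0.140 without PT2385 replicate 2 and 0.282 with all 9 libraries in a single model. In KO the difference from WT was -0.08 (-0.42 to 0.27, adjusted p = 0.762), so a change of up to that size in either direction was not detectable at this spread. It depended on single libraries, with -0.31 (adjusted p = 0.0256) without KO replicate 3 and 0.12 (adjusted p = 0.453) without KO replicate 2. The difference between KO and PT2385 was 0.23 (-0.15 to 0.62, adjusted p = 0.409), and 0.43 (adjusted p = 0.0493) without KO replicate 2. The exons of ICAM1 (chromosome 19, 10271093 to 10286615, plus strand) share 25.4% of their bases with antisense RNAs, which had 14 and 15 counts over the 9 libraries.

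The spread of ICAM1 in KO ran alongside that of several other NF-kappaB and cytokine genes. CXCL8, which encodes a neutrophil chemokine, had 301, 101 and 705 counts in KO replicates 1, 2 and 3, and TNFAIP3, an inhibitor that NF-kappaB induces, had 511, 281 and 828. TNFAIP3 was singled out after its values were seen. Of the 16 tested genes on a list of NF-kappaB factors, targets and cytokine receptors, 11 were highest in KO replicate 3 and lowest in KO replicate 2 by CPM. So were 5 of the 9 adhesion genes (VCAM1, ICAM1, L1CAM, NRCAM and CD44) and 21.8% of all tested genes. The receptor genes IL1R1 and TNFRSF1A of the list ran the opposite way, highest in KO replicate 2 and lowest in KO replicate 3. In KO replicates 1, 2 and 3 IL1R1 had 77.9, 80.6 and 61.3 CPM and TNFRSF1A 241, 289 and 195. The order counted is the one that ICAM1 itself showed, and ICAM1 is among the 5. CXCL8 and TNFAIP3 are among the 11. The counts are therefore a description and no test. Without KO replicate 3 VCAM1 was 2.56 (adjusted p = 1.78e-11) and NRCAM 3.85 (adjusted p = 2.53e-09) above WT on the log2 scale. The part of this library difference in the results was not tested.

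MCAM, also called CD146 and first described in melanoma, was the single gene of the 9 tested that fell in KO. It had 66.0, 69.5 and 53.4 CPM in WT, 69.1, 84.6 and 63.2 with PT2385 and 35.0, 31.3 and 31.3 in KO. All KO libraries lay below all others, and the PT2385 libraries overlapped WT. MCAM fell by 0.94 on the log2 scale in KO against WT (95% confidence interval -1.17 to -0.71, adjusted p = 5.10e-05) and by 1.15 in KO against PT2385 (adjusted p = 5.29e-05). With PT2385 the difference from WT was 0.19 (-0.06 to 0.45, adjusted p = 0.381). MCAM (chromosome 11, 119308529 to 119321521, minus strand) shares 509 exon bases with CBL on the opposite strand, and CBL did not pass the test in any comparison (0.07 and 0.08 against WT). The strandedness of the counting is not given in the sources used here.

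L1CAM, the founding member of the family of NRCAM, rose in KO from a low level. It had 89, 144 and 68 counts in WT, 106, 130 and 60 with PT2385 and 196, 203 and 246 in KO. The KO libraries were above all others, while WT and PT2385 covered the same range, with replicate 3 lowest and replicate 2 highest in both. The log2 fold change in KO was 0.89 (0.42 to 1.37, adjusted p = 0.00873) against WT and 1.04 (0.51 to 1.57, adjusted p = 0.0111) against PT2385. For PT2385 against WT it was -0.17 with a wide interval (-0.83 to 0.49, adjusted p = 0.806). The ratio of NRCAM to L1CAM per kb was 0.335 ± 0.164 in WT, 1.32 ± 0.506 with PT2385 and 2.66 ± 0.126 in KO, so NRCAM was the less abundant of both in WT and the more abundant in KO.

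ALCAM, whose partner CD6 is a lymphocyte receptor, was slightly lower with PT2385. It had 413, 426 and 495 CPM in WT, 385, 381 and 349 with PT2385 and 431, 461 and 502 in KO. The PT2385 libraries lay below the other groups, which overlapped. The difference was -0.26 for PT2385 against WT (adjusted p = 0.0479), 0.08 for KO against WT (-0.10 to 0.25, adjusted p = 0.509) and 0.32 for KO against PT2385 (0.16 to 0.48, adjusted p = 0.0117). The first of these was at the threshold: its adjusted p was 0.0540, 0.111 and 0.173 without WT replicate 1, 2 and 3, 0.125 and 0.0676 without PT2385 replicate 2 and 3, 0.0753 with all 9 libraries in a single model and 0.0693 with library-size scaling. CD6 itself had at most 2 counts in any library.

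Of the remaining genes CD44, NCAM1 and F11R passed no test and BCAM could not be tested. CD44 had 580, 663 and 702 CPM in WT, 610, 634 and 749 with PT2385 and 715, 613 and 879 in KO, which overlapped throughout. Its log2 difference was 0.03 (-0.15 to 0.22, adjusted p = 0.875) with PT2385 and 0.20 (-0.05 to 0.45, adjusted p = 0.223) in KO, and the latter was 0.31 (adjusted p = 0.0328) without KO replicate 2. NCAM1, which binds itself and FGFR1, had 98.9, 87.1 and 89.5 CPM in WT, 101, 99.8 and 87.0 with PT2385 and 89.3, 87.4 and 88.7 in KO. The groups coincided, and the intervals against WT ran from -0.11 to 0.23 with PT2385 and from -0.19 to 0.11 in KO. F11R had 36.8, 33.0 and 37.6 CPM in WT, 29.6, 32.4 and 29.7 with PT2385 and 31.6, 33.7 and 31.0 in KO. The PT2385 libraries of F11R all lay below WT by a small margin, with a log2 difference of -0.23 (-0.42 to -0.04) whose unadjusted p of 0.0192 became 0.140 after adjustment. F11R shares 36.6% of its exon bases with a same-strand gene model that is listed at 0 counts. BCAM had 5, 3 and 1 counts in WT, 1, 4 and 7 with PT2385 and 6, 9 and 7 in KO, which was below the filter on low counts, so no difference was detectable at this depth.

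Upon PT2385 treatment 4 of the 9 tested genes passed the test, compared with 7.70% of all 15089 tested genes. The genes were chosen with earlier results of these data known, and the authors had reported VCAM1 as up-regulated upon PT2385 treatment. The counts of the 9 genes are therefore a description, and the shares of all genes are given for scale. VCAM1 and NRCAM were up-regulated, compared with 3.08% of all genes, and ICAM1 and ALCAM were down-regulated, compared with 4.62%. In KO 4 of 9 passed, compared with 30.1% of 15192, with VCAM1, NRCAM and L1CAM higher (14.7% of all genes) and MCAM lower (15.4%). Between KO and PT2385 5 of 9 passed, compared with 18.8% of 15402, with VCAM1, NRCAM, L1CAM and ALCAM higher in KO (8.47%) and MCAM lower (10.3%). The share in KO was thus the one nearest to that of all genes. Replicates did not overlap for 5 of 9 genes between PT2385 and WT (26.0% of all genes), for 4 of 9 between KO and WT (43.8%) and for 5 of 9 between KO and PT2385 (35.4%). The comparisons of PT2385 and KO with WT share the WT libraries and are therefore not independent of each other. With the replicate number as a block the number of all genes that passed for PT2385 against WT was 2305 in place of 1162, and the same 4 adhesion genes passed. With 3 against 3 libraries an exact permutation test of a single gene cannot go below p = 0.1. Nothing in the labels says that the replicates came from separate cultures. The p-values of the main test therefore set a group difference against the variation among these libraries, which may not be that among separate cultures.

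**Figure D2:**
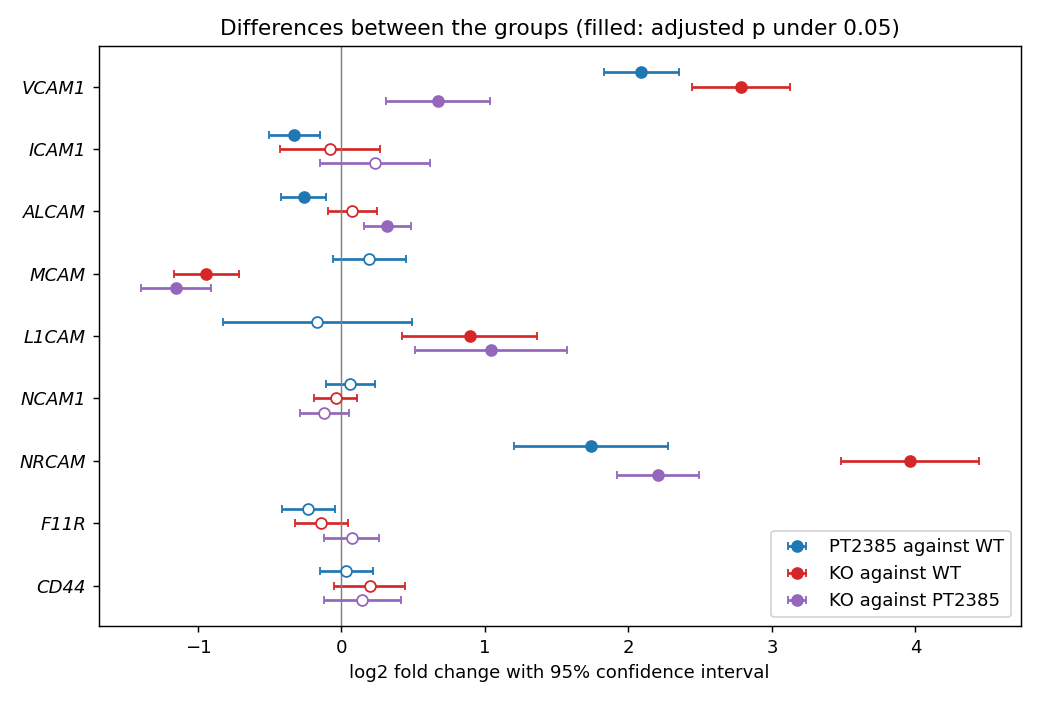
Log2 fold change (horizontal axis) of the 9 tested genes in the 3 comparisons, with 95% confidence intervals as bars. Filled points passed an adjusted p of 0.05 and open points did not. VCAM1 and NRCAM lie to the right of 0 in all 3 comparisons, MCAM lies to the left in both comparisons with KO, and NCAM1, F11R and CD44 stay near 0.

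The make-up of the adhesion transcripts differed between the groups, whereas the ranges of their sum overlapped. The summed level of the 10 genes was 205 ± 11.9 CPM per kb in WT, 197 ± 8.82 with PT2385 and 232 ± 36.4 in KO. VCAM1 took up 1.33% to 1.59% of that sum in WT, 5.39% to 7.11% with PT2385 and 8.22% to 9.58% in KO. It thereby moved from rank 7 to rank 4 behind CD44, ALCAM and ICAM1. For each unit of ICAM1 transcript per kb there were 0.0592 ± 0.00370 units of VCAM1 in WT, 0.316 ± 0.0418 with PT2385 and 0.435 ± 0.0506 in KO. NRCAM took up 0.177% ± 0.0764 in WT, 0.624% ± 0.0827 with PT2385 and 2.44% ± 0.0497 in KO, while MCAM went from 4.18% ± 0.750 to 1.92% ± 0.322 between WT and KO. CD44 kept a share of 29.9% to 36.2% in all 9 libraries.

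**Figure D3:**
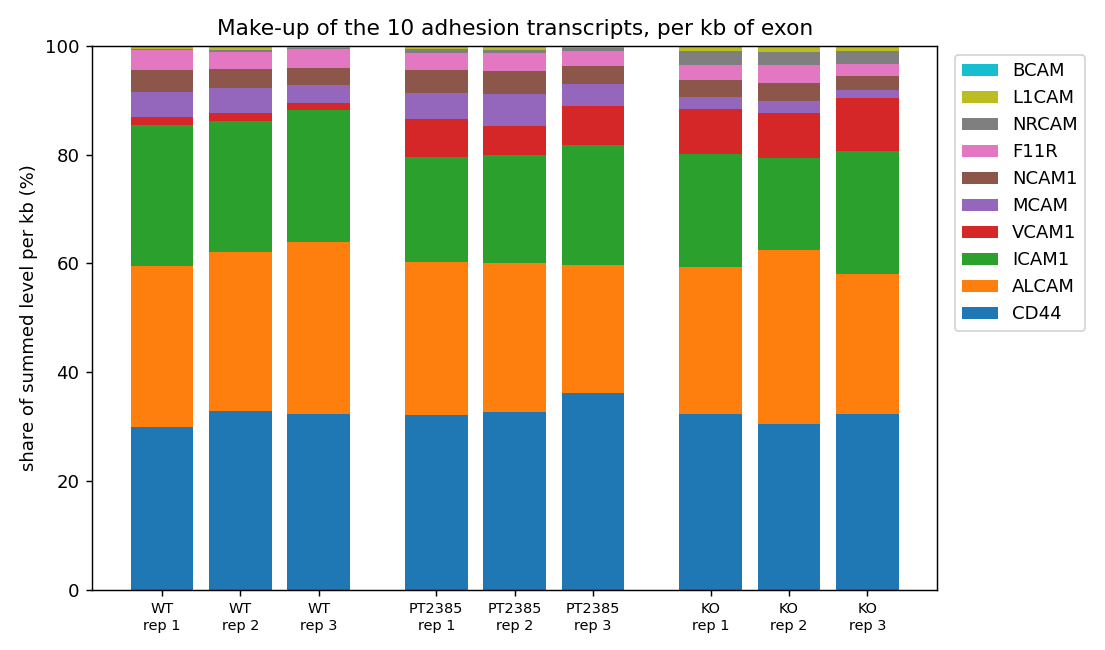
Share of each gene in the summed CPM per kb of the 10 genes (vertical axis, percent), with 1 stacked bar per library. CD44, ALCAM and ICAM1 fill most of every bar, and the band of VCAM1 widens from at most 1.59% in WT to at least 5.39% with PT2385 and 8.22% in KO.

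Among 47 other adhesion genes of the immunoglobulin type, 18 had at most 3 counts in every library and 12 of those were at 0. With PT2385, where 7.70% of all genes passed, 1 of 19 tested genes rose and 1 fell. In KO, where 30.1% of all genes passed, 9 rose and 5 fell. The median log2 fold change was 0.08 with PT2385 and 0.23 in KO, and that of all tested genes was near 0 (9.93e-04 and 0.00378). The summed level of the 47 genes was 2481 to 2542 CPM in WT, 2391 to 2522 with PT2385 and 2259 to 2398 in KO. It was thus lower in KO than in WT, although more genes rose than fell. NECTIN1, a nectin of adherens junctions, rose by 0.55 (adjusted p = 0.00404) and 1.34. CADM1, a nectin-like molecule, had 3257 to 3536 counts in WT, 2316 to 2470 with PT2385 and 1611 to 2033 in KO, and fell by 0.66 and by 1.11. NTM, a GPI-anchored neural adhesion molecule, had 11, 15 and 16 counts in WT, 19, 16 and 37 with PT2385 and 112, 162 and 120 in KO. It rose by 3.01 in KO and overlapped between WT and PT2385. Thus NRCAM was not alone among neural adhesion genes in being far higher in KO, and the contactin CNTN6 rose in KO by 1.54 (adjusted p = 0.00675) from 5, 12 and 7 to 22, 34 and 25 counts, while NCAM2, CHL1 and CNTN2 were at 0 in all libraries. Of the 3 tested neural markers in KO, MAP2 (8 to 14 counts in WT, 38 to 52 in KO) and RBFOX3 (2 to 9, 18 to 28) rose and TUBB3 (58 to 85, 38 to 50) fell. SYP had 5 to 14 counts over all libraries, GFAP at most 4 and SOX10 none, and the summed level of the list was 7.19 to 9.88 CPM in WT and 7.56 to 9.18 in KO. Their part in the result for NRCAM was not tested.

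The integrins that bind these molecules were unevenly present. ITGA4, the α4 chain that pairs with ITGB1 to bind VCAM1, had 0 to 6 counts in all libraries, ITGA9, another chain that binds VCAM1, had at most 1, and ITGAL, the α chain of LFA-1 that binds ICAM1, was at 0. ITGB1 was abundant (11121 to 13498 counts) and passed no test, with log2 differences of -0.02 and -0.03 against WT. ITGB3, which pairs with ITGAV and binds L1CAM, rose by 0.95 (adjusted p = 0.00101) with PT2385 and by 0.68 (adjusted p = 0.00278) in KO. In counts it went from 453 to 623 in WT to 991 to 1354 with PT2385 and 867 to 1204 in KO, without overlap with WT. ITGB2, the β chain of LFA-1, rose by 1.79 in KO from 27, 61 and 36 to 131, 105 and 262 counts. ITGA5, a fibronectin receptor chain, fell by 0.39 in KO. In all, 1 of 6 tested integrin genes rose with PT2385, where 7.70% of all genes passed. In KO 2 rose and 1 fell, where 30.1% of all genes passed.

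Of 7 tested ligands and co-receptors 2 rose and 1 fell with PT2385, where 7.70% of all genes passed, and 2 rose in KO, where 30.1% did. LAMA5, the laminin chain that BCAM binds, had 68, 76 and 53 counts in WT, 106, 135 and 100 with PT2385 and 488, 603 and 498 in KO. Its log2 fold change was 2.81 in KO, and with PT2385 it was 0.64 with an adjusted p of 0.0586. LAMA5 shares 244 exon bases with ADRM1 on the opposite strand. NRP1, a co-receptor of L1CAM in axon guidance, rose by 0.55 with PT2385 and by 1.48 in KO. SPP1, which encodes the CD44 ligand osteopontin, rose by 0.30 (adjusted p = 0.0469) with PT2385, and EGFR fell by 0.32 (adjusted p = 0.0125). Between KO and PT2385, where 18.8% of all genes passed, 3 of these genes were higher in KO, among them LGALS1 (0.26).

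Although CD44 passed no test, genes that make or bind its ligand hyaluronan did. HAS3, a hyaluronan synthase, had 222 to 329 counts in WT, 472 to 772 with PT2385 and 412 to 529 in KO, and rose by 1.02 (adjusted p = 0.00114) and 0.63 (adjusted p = 0.00374). HAS3 shares 365 exon bases with CHTF8 on the opposite strand. CEMIP2, which is described as a hyaluronidase of the cell surface, rose by 0.52 and 0.42. TNFAIP6, a secreted protein that binds hyaluronan, had 47, 45 and 83 counts in WT, 13, 30 and 31 with PT2385 and 1, 3 and 5 in KO, and fell in both (adjusted p = 0.0179 with PT2385). With PT2385 3 of 6 tested genes rose and 1 fell, where 7.70% of all genes passed. In KO, where 30.1% passed, 2 rose and 2 fell. The latter included HMMR (-0.50), a hyaluronan receptor that also acts at the mitotic spindle.

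Linkers join these molecules to actin and spectrin, and sheddases cut them from the surface. Of 10 tested linker genes 1 rose (NF2, 0.25) and 1 fell (AFDN, -0.21) with PT2385, where 7.70% of all genes passed. In KO 3 rose and 3 fell, where 30.1% of all genes passed. ANK3, an ankyrin to which NRCAM and L1CAM attach, had 120, 188 and 119 counts in WT, 121, 126 and 88 with PT2385 and 403, 322 and 358 in KO, and rose by 1.15 in KO (adjusted p = 6.24e-04). TJP1, the tight junction scaffold that F11R binds, fell by 0.41 in KO. ADAM10, a protease that cleaves L1CAM and CD44, fell by 0.60 in KO, and with PT2385 its difference from WT was -0.16 (adjusted p = 0.307). Of 5 tested sheddase genes 2 fell in KO against WT and 3 were lower in KO than with PT2385. Of all genes 30.1% and 18.8% passed in these comparisons.

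Those genes of the NF-kappaB and cytokine list that passed the test showed no common direction. With PT2385 1 of 16 rose and 2 fell, and in KO 2 rose and 2 fell, with medians of -0.08 and -0.05. Of all genes 7.70% and 30.1% passed in these comparisons. The subunit genes RELA, RELB, REL, NFKB1 and NFKB2 were all below WT with PT2385 (-0.07, -0.14, -0.36, -0.14 and -0.09), though REL alone of these passed. IRF1, TNFRSF1A, IL1R1, CCL2 and TRAF1 were above WT with PT2385, and the rest of the list below. IL1R1, the interleukin 1 receptor, had 373, 466 and 401 counts in WT, 672, 591 and 724 with PT2385 and 1010, 1163 and 892 in KO, and rose by 0.53 (adjusted p = 0.00632) and 1.10. TNFRSF1A, the main TNF receptor, rose by 0.72 in KO (adjusted p = 0.00179). CXCL8 fell by 0.64 and REL, a subunit of NF-kappaB, by 0.36 with PT2385, and BIRC3, an NF-kappaB target, fell by 0.66 in KO. NFKB2, which encodes another subunit, fell by 0.48 in KO (adjusted p = 0.0152), RELA and NFKB1 passed no test, and SELE, the endothelial selectin that NF-kappaB induces alongside VCAM1, was at 0 in all libraries.

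**Figure D4:**
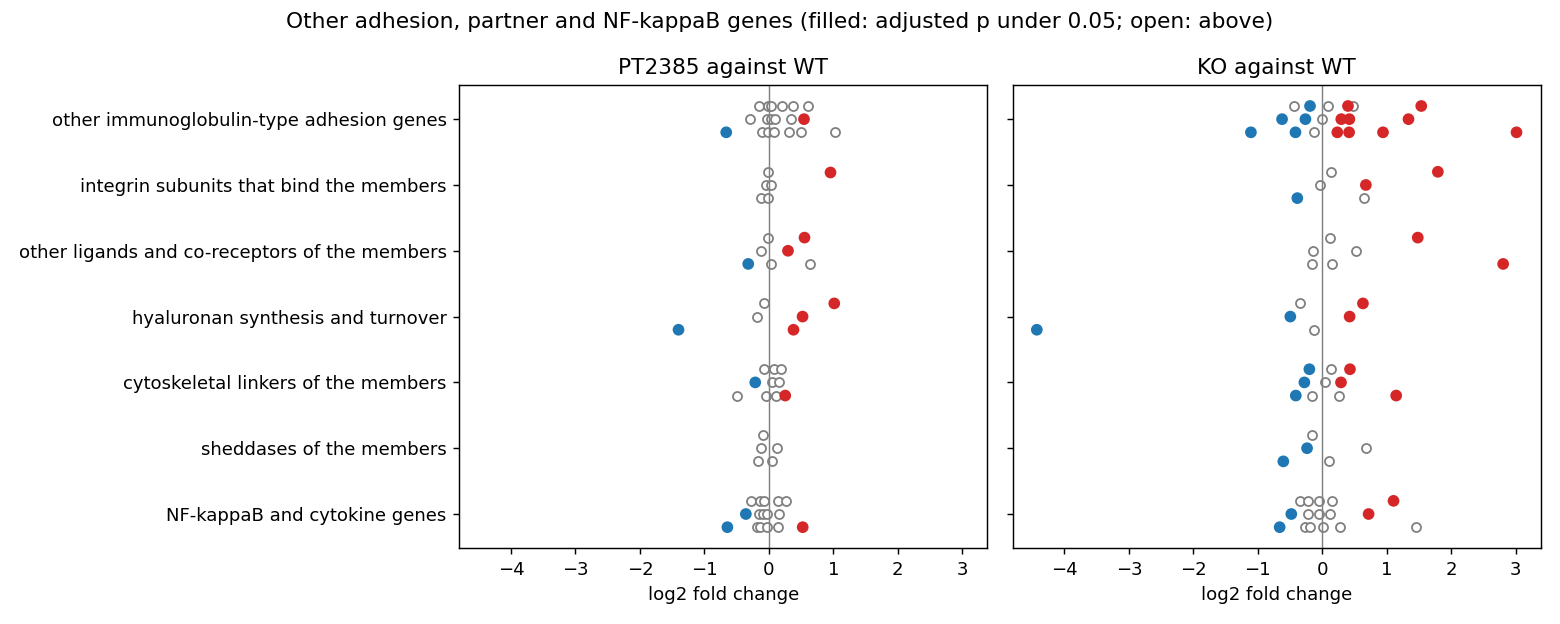
Log2 fold change (horizontal axis) of the tested genes of 7 lists around the adhesion molecules, for PT2385 against WT (left) and KO against WT (right). Each point is a gene, filled red or blue where it was higher or lower at an adjusted p under 0.05 and open otherwise. More points are filled in KO, where 30.1% of all genes passed the test, than with PT2385, where 7.70% passed.

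The genes whose level was most like that of VCAM1 over the 9 libraries were PCDHGC3 (Pearson r = 0.992), MORC4 (0.991), SDHB (0.987), SNX27 (0.986) and IL18 (0.980), of 10140 genes with a mean of at least 100 counts. PCDHGC3 shares its constant exons with the other genes of its protocadherin cluster. All points share the 3 groups, so the values describe a pattern of low in WT and high in KO. Among the 5, IL18, an inflammatory cytokine, had changes of a similar size, with log2 fold changes of 1.94 and 2.31 against WT, while the other 4 moved by 0.27 to 0.97. For NRCAM the most similar genes were YIF1B (0.988), ATP10D (0.986), RNASEH2C (0.985), GRIN2B (0.983) and WNT7B (0.982). VCAM1 and NRCAM themselves had an r of 0.907, with NRCAM showing the larger step between PT2385 and KO.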

How the data were processed

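RNAseq was carried out on 786-0 WT cells, the same cells with PT2385 and HIF2α KO cells, with 3 replicates each. The authors trimmed reads with cutadapt, aligned them to GRCh38 (hg38) with STAR and deposited raw counts per gene from featureCounts, whose versions, annotation release and strand setting are not given in the sources used here. Groups and replicate numbers came from the sample titles. Of 58735 identifiers 58207 were matched to GENCODE on GRCh38, which gave symbols, positions and exon lengths. The 10 genes and all lists were chosen with earlier results of these data known.

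Each pair of groups was fitted on its own with edgeR 4.0.16 in R 4.3.3, using TMM normalisation, filterByExpr with its minimum of 10 counts, and the quasi-likelihood F test. P-values were adjusted by Benjamini-Hochberg across every gene that entered a fit, with a threshold of 0.05. Only the edgeR and DESeq2 fits of PT2385 against WT were tested on simulated counts, with large changes in well-counted genes. Small changes, low genes and the comparisons with KO were not covered by that test. CPM were scaled with TMM over all 9 libraries, and 11881000 to 14730081 counts per library set the precision of low genes. Named list genes were up to 3 per list and comparison that passed the test, by the largest change, with a mean of at least 20 counts. Markers, list genes named for a count near 0, ITGB1, RELA, NFKB1, NFKB2 and CNTN6 were named beyond that rule, after their values were seen. For likeness 0.5 was added to CPM before taking logs. Alternatives were DESeq2 1.42.0, RLE and library-size scaling, no filter, at least 10 counts in every library, a replicate block, all 9 libraries in 1 model, and leaving out each library. The main tests did not pair libraries by replicate number, and the replicate block was an alternative only. Deviations from the group means correlated between PT2385 and WT libraries of the same number (r = 0.453, 0.137 and 0.431 over 10140 genes). For KO and WT these were 0.319, 0.0560 and 0.481, and for KO and PT2385 0.348, 0.0915 and 0.415. The labels do not say whether libraries of the same number belong together. No amino acid sequences were used.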

Additional observations from a re-analysis of the deposited data

How the results depend on the processing

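The calls of VCAM1 and NRCAM against WT, and of MCAM, L1CAM and NRCAM in both comparisons with KO, held under all 13 alternatives. So did the call of ALCAM between KO and PT2385, while that of VCAM1 between KO and PT2385 held under 12. For PT2385 against WT 2 adhesion genes, VCAM1 and NRCAM, passed with all 9 libraries in a single model, and leaving out 1 library gave 2 to 4. The number of all genes that passed there was 2305 with the replicate block and 574 to 1451 when 1 library was left out, the fewest without PT2385 replicate 2. For KO against PT2385 it was 1836 to 3190. The block gave 4, 4 and 5 adhesion genes for the 3 comparisons and changed no call among them. The signs of some differences that had not passed turned when a library was left out. With PT2385 against WT L1CAM ran from -0.41 to 0.18 (0.18 without WT replicate 2, 0.13 without PT2385 replicate 3) and CD44 from -0.0607 to 0.0938 (-0.0419 without WT replicate 1, the lowest without PT2385 replicate 3). With KO against WT ICAM1 ran from -0.31 to 0.12 (0.12 without KO replicate 2) and NCAM1 from -0.0849 to 0.0191 (0.0191 without WT replicate 1). Between KO and PT2385 ICAM1 ran from -0.00414 to 0.43 and CD44 from -0.00154 to 0.26, both lowest without KO replicate 3. CD44 in KO passed without the filter on low counts (0.19, adjusted p = 0.0197). The causes of these shifts were not tested. Low counts limit what can be said of BCAM, and the spread of the KO libraries what can be said of ICAM1 and CD44.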
